A study of Mus musculus with 33 samples.

Results

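In 33 mouse prostate tumours, the 11 with the most T cell receptor transcripts for their treatment, called T-cell-rich tumours here, were compared with the 11 with the fewest, the T-cell-poor tumours. Both were chosen by a score made of 3 genes. Cd3e and Cd3g encode the epsilon and gamma chains of the CD3 complex, which carries the signal of the T cell receptor into the cell, and Trbc2 encodes a constant region of the receptor's beta chain. The score of a tumour was the mean log2(FPKM + 0.5) of the 3 genes minus the mean of its treatment group, where FPKM are fragments per kilobase of exon, scaled to the depth of the library, and the 11 highest and 11 lowest of the 33 scores made the sets. The remaining 11 tumours lay between them. The sets were thus made from measured values and are not groups of the study, and the 3 score genes are described below without a test.

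The tumours grew from Myc-CaP, a single mouse prostate cancer line driven by a human MYC transgene, injected under the skin of both flanks of male FVB mice, which have an intact immune system. Mice entered treatment when tumours measured 50 mm3, and it lasted 3 weeks. The study gave 15 mg/kg ESK981, a kinase inhibitor taken by mouth whose targets include the lipid kinase PIKfyve, or its vehicle on 5 days a week, and an antibody against PD-1 or an isotype control at 200 µg per mouse 3 times a week. The 4 groups of 5 mice each were ESK981 (8 tumours), anti-PD-1 (7 tumours), both agents together, or the combination (8 tumours), and vehicle (10 tumours), named by their active agents. The tumours are named by group, mouse number and flank (L or R), and 13 mice gave 2 tumours. Transcripts of the prostate factor Hoxb13 (2.09 to 5.48 FPKM) were present in all 33 tumours. Those of the epithelial adhesion gene Epcam (0 to 0.203 FPKM) and the keratin Krt18 (0 to 1.42 FPKM) were near 0, while the keratin Krt8 ranged from 3.73 to 117 FPKM.

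T cells that recognise antigen in a tumour release interferon gamma and, in the case of CD8 cells, kill target cells with perforin and granzymes. Interferon gamma acts on tumour, stromal and myeloid cells, where it induces guanylate binding proteins, the chemokines that bind CXCR3, the peptide-loading machinery of MHC class I, and, through the coactivator CIITA, the genes of MHC class II. It also induces PD-L1, the ligand of the inhibitory receptor PD-1 on T cells. Low oxygen acts through the HIF transcription factors on another set of genes, among them glycolytic enzymes, and poorly perfused tumour regions are known to hold few T cells. In bulk tumour RNA, fewer cells of a type and less RNA per cell cannot be told apart.

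By their library measures, 3 libraries stood apart, and all 3 were T-cell-poor tumours. They were chosen with earlier results of these data known. The screen for outlying values described at the end flagged anti-PD-1 4R alone. Vehicle 5R had the lowest depth (9.90 mega-fragments, M) and the most mitochondrial coding RNA, and it was sequenced on another flow cell than the other 9 vehicle tumours. Anti-PD-1 4R was low in depth and high in mitochondrial RNA, and combination 5R had the most ribosomal RNA. Depth was 14.1 to 24.9 M fragments in T-cell-rich tumours and 9.90 to 27.7 M fragments in T-cell-poor tumours, and 8 T-cell-rich and 9 T-cell-poor tumours came from the flow cell of the treated tumours. The sets differed by 0.07 in depth, −0.21 in ribosomal-RNA-like FPKM and 0.10 in mitochondrial coding FPKM (group-centred log2), none of which passed a two-sided permutation test (adjusted p = 0.809 for each). Without the 3 libraries, mitochondrial coding RNA was 0.54 higher in T-cell-rich tumours (log2, permutation p = 0.0511, adjusted p = 0.153). With mitochondrial and ribosomal RNA levels as covariates, 1534 genes were called between the sets, against 1043 without them. List counts below are also given without the 3 libraries.

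The T-cell-rich set held 2 ESK981, 3 anti-PD-1, 3 combination and 3 vehicle tumours from 10 mice, 6 of the left flank and 5 of the right. Their centred scores were 0.59 and 0.47 in ESK981 1L and 3R, 0.64, 0.51 and 0.45 in anti-PD-1 4L, 3R and 5L, 0.92, 0.73 and 0.63 in combination 3L, 3R and 2R, and 0.76, 0.75 and 0.67 in vehicle 4L, 1R and 3L. The T-cell-poor set held 3 ESK981, 2 anti-PD-1, 3 combination and 3 vehicle tumours from 11 mice, 5 of the left flank and 6 of the right. Their scores were −0.39, −0.25 and −0.18 in ESK981 5L, 3L and 4R, −1.25 and −0.21 in anti-PD-1 4R and 1R, −1.33, −0.88 and −0.31 in combination 1L, 5R and 4L, and −1.53, −0.71 and −0.21 in vehicle 5R, 4R and 1L. The poor end of the scale was thus longer than the rich end, and it was made of few tumours, of which 3 were the libraries that stood apart. The sets bordered closely on the tumours between them. The lowest T-cell-rich score of 0.45 stood next to 0.41 in vehicle 2L, and the highest T-cell-poor score of −0.18 next to −0.15 in vehicle 2R.

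A score is relative to the tumour's own treatment. Before centring, group means of the score were −0.19 for ESK981, 0.75 for anti-PD-1, 0.80 for the combination and 0.90 for vehicle tumours. ESK981 1L, T-cell-rich among ESK981 tumours, had a raw score of 0.39, below the 0.54 of anti-PD-1 1R, which was T-cell-poor among its own group. The plot of scores by tumour shows both scales.

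**Figure D1:**
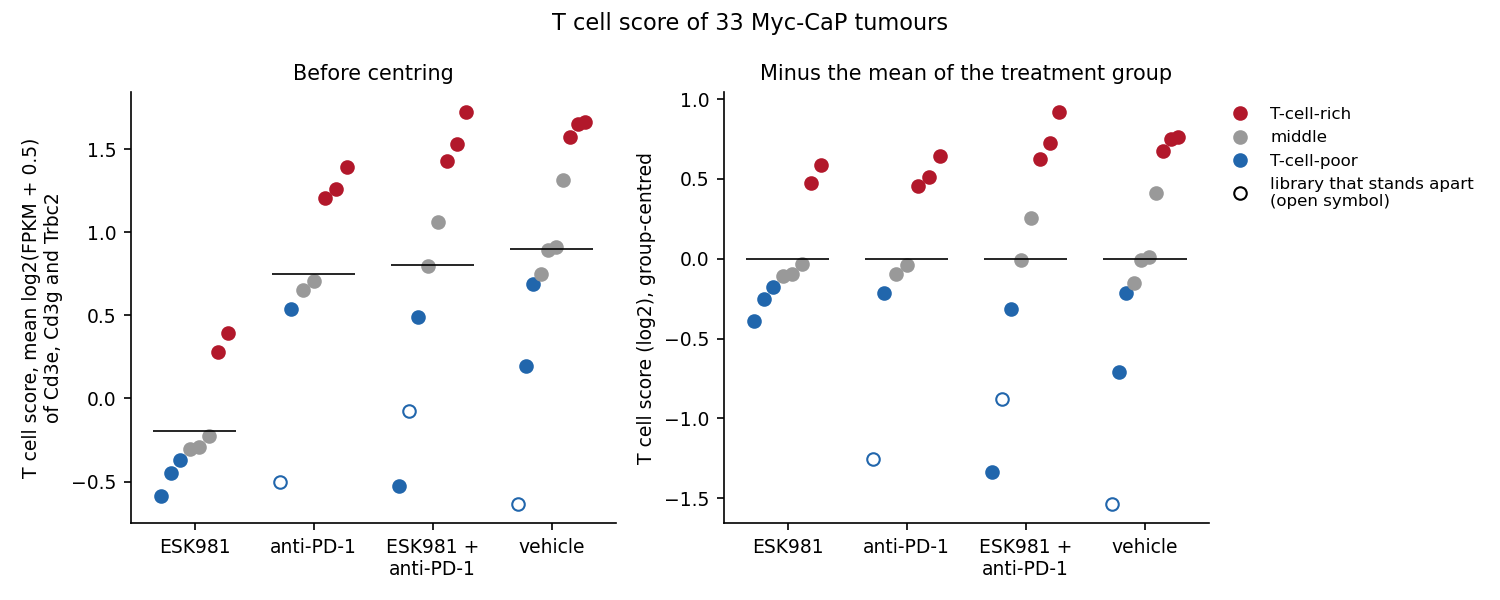
T cell score of each of the 33 tumours by treatment, as mean log2(FPKM + 0.5) of Cd3e, Cd3g and Trbc2 (left) and after subtraction of the treatment group's mean (right), with red for T-cell-rich, grey for middle and blue for T-cell-poor tumours and lines at group means. The T-cell-rich scores end at 0.92 while the T-cell-poor ones reach −1.53, and the ESK981 tumours lie lowest before centring, with a group mean of −0.19.

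All 3 score genes were transcribed at low levels. Cd3e had 0.671, 1.88 and 2.56 FPKM (lowest, median and highest) in T-cell-rich tumours, against 0.0703, 0.261 and 1.03 FPKM in T-cell-poor tumours. Cd3g had 0.620, 2.34 and 3.08 FPKM in T-cell-rich tumours, against 0.0944, 0.304 and 1.19 FPKM in T-cell-poor tumours. Trbc2 had 0.719, 2.68 and 3.12 FPKM in T-cell-rich tumours, which rested on 9 to 40 fragments per tumour, against 0.108, 0.417 and 1.34 FPKM on 1 to 16 fragments in T-cell-poor tumours. Uncentred values of the sets overlapped, because the treatment groups differed in level, and counting error alone is large at 1 to 16 fragments. When the score was built instead from Cd3d, Cd5, Cd6, Lck and Trac, 10 of the 11 T-cell-rich and 7 of the 11 T-cell-poor tumours kept their set.

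The other genes of the T cell receptor and of cytotoxic lymphocytes moved with the score. Many of them are transcribed by the same cells as the score genes, so these counts describe the sets and are no independent finding. NK cells also transcribe cytotoxic genes, and which cells carried them here was not tested. Over all 15843 genes tested with limma on log2(FPKM + 0.5), 1043 (6.58%) differed between T-cell-rich and T-cell-poor tumours at an adjusted p under 0.05, of which 1016 (6.41%) were higher and 27 (0.17%) lower in T-cell-rich tumours. The median log2 difference of all genes was 0.12, and median-of-ratios scaling moved it to −0.01, with 731 genes (4.61%) higher and 216 (1.36%) lower. Without the 3 libraries that stood apart, 523 genes (3.3%) were higher and 57 (0.36%) lower, and 508 of the 1016 higher genes and 10 of the 27 lower genes were called again. Genes were tested where at least 5 tumours reached 0.5 FPKM, and genes of rare cells could pass that minimum through the T-cell-rich tumours alone, so each list below is given with its number of genes tested. List medians stand against the median over all genes, which was 0.12 with all 33 tumours and −0.045 without the 3 libraries.

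Of 22 genes of the T cell receptor complex and its proximal signalling, 12 were tested and 10 rose in T-cell-rich tumours (median log2 difference 0.80, and 9 called with a median of 0.67 without the 3 libraries). Trac, the constant region of the receptor's alpha chain, had 0.769, 1.93 and 2.65 FPKM in T-cell-rich tumours, against 0, 0.479 and 0.971 FPKM in T-cell-poor tumours (log2 difference 1.22 ± 0.17 (SE), adjusted p = 4.31e-05, n = 11 tumours per set in this and all such comparisons). After centring by treatment, all 11 T-cell-rich tumours lay above every T-cell-poor one for Trac, the kinase Lck, the adhesion receptor Cd2 and the costimulatory receptor Icos. Such a complete separation was found for 76 of the 15843 genes (0.48%). The tested receptor signalling genes Cd5 (0.48 ± 0.16, adjusted p = 0.0780) and Fyn (0.25, adjusted p = 0.144) were not called, and Cd247, the zeta chain, was below the minimum with a median of 0.136 FPKM in T-cell-rich and 0.0290 FPKM in T-cell-poor tumours. Of 72 T cell receptor gene segments tested, 59 were joining segments. In all, 20 segments rose and 0 fell, against 6.41% and 0.17% of all genes, and 15 of the 20 were joining segments. Joining segments are short, so few fragments can bring them to the minimum FPKM. They could pass it through the T-cell-rich tumours alone, so this count describes the sets.

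CD8 and cytotoxic genes had the largest median among the T cell lists. Of 16 genes, 12 were tested and 11 rose (median 1.17, and 11 with a median of 0.92 without the 3 libraries). Gzmb, the serine protease granzyme B, had 0.507, 2.74 and 4.55 FPKM in T-cell-rich tumours, against 0.118, 0.427 and 1.23 FPKM in T-cell-poor tumours (1.47 ± 0.20, adjusted p = 4.31e-05). Prf1, the pore-forming perforin, had 0.242, 1.93 and 2.57 FPKM in T-cell-rich tumours, against 0.0527, 0.197 and 0.788 FPKM in T-cell-poor tumours (1.20 ± 0.17, adjusted p = 4.52e-05). For both, the centred sets did not overlap, and the lowest T-cell-rich values were those of ESK981 3R. Nkg7, a protein of cytotoxic granules (1.40 ± 0.20), and the coreceptor chains Cd8a (0.91 ± 0.14) and Cd8b1 (0.72 ± 0.11) rose with them. Ifng, which encodes interferon gamma, had 0.458, 0.939 and 2.43 FPKM in T-cell-rich tumours, against 0, 0.144 and 0.594 FPKM in T-cell-poor tumours (1.27 ± 0.18, adjusted p = 4.52e-05). Of 9 listed NK cell genes, only Xcl1 was tested, and it rose (0.53 ± 0.12, adjusted p = 0.00432). Xcl1 was also called without the 3 libraries (0.50, adjusted p = 0.0244).

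The largest rise among the called protein-coding genes was that of Ccl5, a chemokine that cytotoxic T cells and macrophages release (chr11:83525778-83530518, minus strand, GENCODE M21 on GRCm38). Ccl5 had 3.51, 23.6 and 46.4 FPKM in T-cell-rich tumours, against 0.999, 5.36 and 15.6 FPKM in T-cell-poor tumours (1.96 ± 0.28, adjusted p = 4.31e-05), and all 11 centred T-cell-rich values lay above all T-cell-poor ones. Its difference was 1.92 without the 3 libraries (adjusted p = 0.00125).

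Markers of CD4 and regulatory T cells yielded few calls. Of 12 genes, 7 were tested and 1 rose (median 0.29, and 2 with a median of 0.14 without the 3 libraries), and that gene was Il2rb (1.24 ± 0.17), the beta chain of the IL-2 receptor, which CD8 T cells and NK cells also carry. The coreceptor Cd4 had 0.192, 0.718 and 1.43 FPKM in T-cell-rich tumours, against 0.0930, 0.266 and 1.16 FPKM in T-cell-poor tumours, and only 2 of the 11 centred T-cell-rich values lay above the highest T-cell-poor one. Its difference of 0.45 ± 0.14 was not called (adjusted p = 0.0537), but it was 0.57 and called without the 3 libraries (adjusted p = 0.0199). Over 40 alternative settings, the Cd4 difference lay above 0 in all and was called in 12. Foxp3, the factor that defines regulatory T cells, stayed below the minimum with a median of 0.145 FPKM in T-cell-rich and 0.0542 FPKM in T-cell-poor tumours. Whether CD8 and CD4 genes differed in their rise was not tested.

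Inhibitory receptors, which restrain activated T cells, rose with the score. Of 10 genes, 5 were tested and 4 rose (median 0.91, and 4 with a median of 0.68 without the 3 libraries). Pdcd1, which encodes PD-1, had 0.401, 1.43 and 1.75 FPKM in T-cell-rich tumours, against 0, 0.194 and 0.846 FPKM in T-cell-poor tumours (0.91 ± 0.16, adjusted p = 0.000365). Havcr2 (TIM-3, 1.09 ± 0.18), Lag3 (0.97 ± 0.15) and Ctla4 (0.74 ± 0.13) rose as well. Among the 11 middle tumours alone, the slope of Havcr2 on the score was −0.048, against the direction between the sets.

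Interferon gamma targets rose in nearly every case. Of 19 tested genes of 20 listed, 18 rose (median 1.27), and 18 did so without the 3 libraries (median 0.91). Gbp2, a guanylate binding protein that acts against intracellular microbes, had 19.8, 44.4 and 75.0 FPKM in T-cell-rich tumours, against 6.18, 11.6 and 29.5 FPKM in T-cell-poor tumours (1.50 ± 0.25, adjusted p = 0.000155). Gbp4 (1.58 ± 0.25) and the immunity-related GTPase Igtp (1.56 ± 0.30) rose with it, as did Irf1 (0.95, adjusted p = 0.00048), a transcription factor of the interferon response. The tryptophan-degrading enzyme Ido1 was at 0.56 and was not called (adjusted p = 0.145). The list mean after centring ran from 0.24 to 1.05 in T-cell-rich tumours (median 0.65) and from −1.97 to 0.09 in T-cell-poor tumours (median −0.27), without overlap. The 4 lowest T-cell-poor values were those of combination 1L and the 3 libraries that stood apart, and the 8 T-cell-poor tumours without those libraries ran from −1.58 to 0.09 (median −0.20).

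Type I interferon targets, which respond to interferon alpha and beta and in part also to gamma, yielded 1 call. Of 16 tested, 1 rose (median 0.28, and 1 with a median of 0.18 without the 3 libraries), namely Oasl2, an oligoadenylate synthetase-like protein (0.70 ± 0.16, adjusted p = 0.00316). With the 3 libraries included, all 16 differences lay above 0. Of the 16 genes, 10 were higher in all 4 treatment groups, against 21.3% of all genes. The ubiquitin-like Isg15, at 0.00, and the antiviral Ifit1, at 0.07, lay below the list median. Centred list means overlapped widely, at −0.20 to 0.52 in T-cell-rich and −0.99 to 0.52 in T-cell-poor tumours. The difference between the gamma and type I lists was itself not tested.

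**Figure D2:**
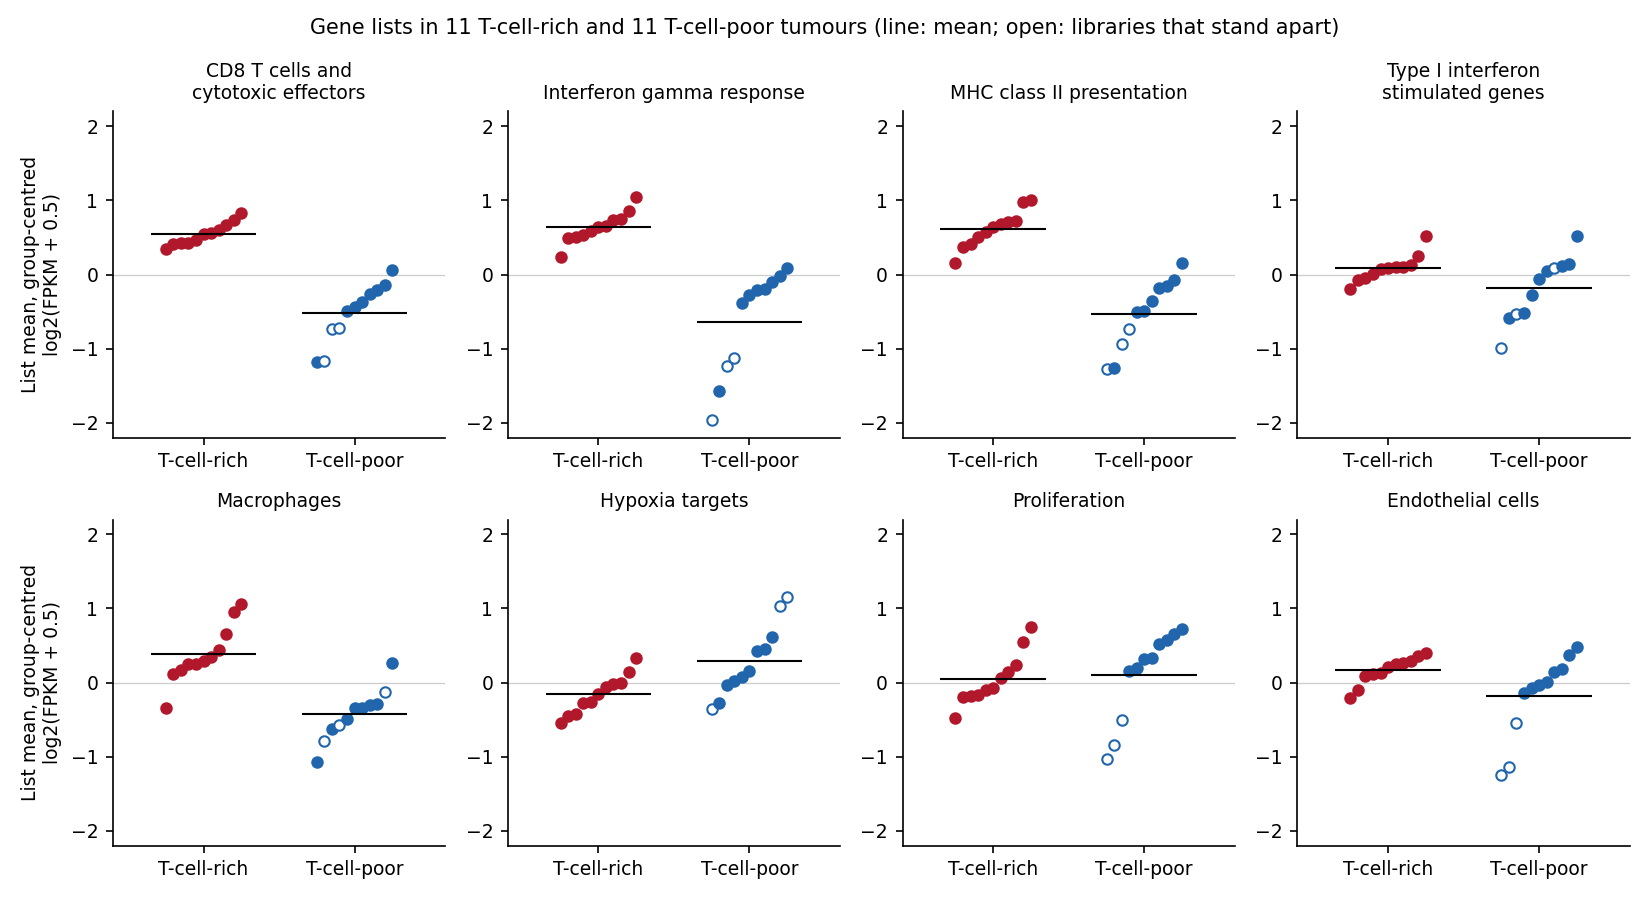
Mean of the tested genes of 8 lists, in group-centred log2(FPKM + 0.5), in each of the 11 T-cell-rich tumours (red) and 11 T-cell-poor tumours (blue), with lines at the set means and open symbols for the 3 libraries that stood apart. The sets do not overlap for the CD8 (lowest T-cell-rich 0.34, highest T-cell-poor 0.07), interferon gamma and MHC class II lists, and they overlap for the other 5.

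All 8 tested genes of MHC class II presentation (of 9 listed) rose (median 1.26), and all 8 did so without the 3 libraries (median 1.12). Class II molecules present peptides to CD4 T cells and are found mainly on macrophages, dendritic cells and B cells. H2-Ab1, the beta chain of the A molecule (chr17:34257689-34269419, plus strand), had 36.5, 116 and 149 FPKM in T-cell-rich tumours, against 14.7, 22.4 and 88.2 FPKM in T-cell-poor tumours (1.47 ± 0.21, adjusted p = 4.31e-05). H2-Aa, its alpha chain, had 41.5, 138 and 156 FPKM in T-cell-rich tumours, against 21.6, 33.1 and 99.7 FPKM in T-cell-poor tumours (1.30 ± 0.17, adjusted p = 4.31e-05), and 10 of 11 centred T-cell-rich values lay above the highest T-cell-poor one for each. The peptide exchange factors H2-DMb1 (1.41 ± 0.19) and H2-DMa (1.22 ± 0.17) rose likewise. Ciita, the coactivator that switches on class II genes (chr16:10480059-10528418, plus strand), had 1.15, 4.28 and 7.26 FPKM in T-cell-rich tumours, against 0.250, 0.727 and 2.74 FPKM in T-cell-poor tumours (1.50 ± 0.22, adjusted p = 5.92e-05), with no overlap of the centred sets.

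Class II genes are switched on together through a shared promoter module that ends in an inverted CCAAT box, the Y box. H2-Aa, H2-DMb1 and H2-Eb1, which rose, are shown here by the 250 bases before the RefSeq start (GRCm38.p6, the C57BL/6J genome, while the tumours come from FVB), since this box is what they share. Capitals mark TGATTGG, searched on both strands (CCAATCA on the other).
H2-Aa (chr17:34287824-34288073, minus strand): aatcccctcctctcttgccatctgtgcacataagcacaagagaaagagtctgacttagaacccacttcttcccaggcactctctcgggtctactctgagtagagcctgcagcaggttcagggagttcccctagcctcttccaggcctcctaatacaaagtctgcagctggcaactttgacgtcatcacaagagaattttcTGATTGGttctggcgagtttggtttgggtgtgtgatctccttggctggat
H2-DMb1 (chr17:34152941-34153190, plus strand): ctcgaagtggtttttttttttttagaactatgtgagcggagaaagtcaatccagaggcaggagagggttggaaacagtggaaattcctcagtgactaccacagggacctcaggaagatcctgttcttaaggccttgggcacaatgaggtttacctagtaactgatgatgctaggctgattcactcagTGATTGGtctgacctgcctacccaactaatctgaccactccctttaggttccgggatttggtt
H2-Eb1 (chr17:34305617-34305866, plus strand): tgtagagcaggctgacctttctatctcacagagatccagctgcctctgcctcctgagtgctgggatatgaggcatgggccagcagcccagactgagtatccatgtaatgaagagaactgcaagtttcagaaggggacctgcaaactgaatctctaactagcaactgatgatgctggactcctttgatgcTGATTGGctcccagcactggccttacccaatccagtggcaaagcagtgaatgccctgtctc
The box began 50, 63 and 61 bases before the start of H2-Aa, H2-DMb1 and H2-Eb1. Of the 8 tested class II genes, 6 had an entry in the table and 5 of these held the box, with none in the 2 entries of H2-DMa, and it occurred in 7.23% of 32851 promoter windows of the same length. H2-Eb1 itself was at a low level, with medians of 2.14 FPKM in T-cell-rich and 0.792 FPKM in T-cell-poor tumours (0.65 ± 0.14, adjusted p = 0.00206). A match of letters is a description of the window and not a site in use. Class I and II genes are highly variable between strains, so fragments of FVB alleles may map unevenly to this genome.

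Of 11 genes of MHC class I presentation, all tested, 10 rose (median 0.72), but 4 were called without the 3 libraries (median 0.53). Tap1, a subunit of the peptide transporter, had 5.20, 12.1 and 16.6 FPKM in T-cell-rich tumours, against 2.42, 3.02 and 17.6 FPKM in T-cell-poor tumours (1.01 ± 0.22, adjusted p = 0.00224). The class I heavy chain H2-D1 had 123, 268 and 321 FPKM in T-cell-rich tumours, against 67.1, 110 and 346 FPKM in T-cell-poor tumours (0.76 ± 0.17, adjusted p = 0.00297). For both genes, the highest single FPKM of all 22 tumours was that of a T-cell-poor tumour, and 5 (Tap1) and 3 (H2-D1) centred T-cell-rich values lay above the highest T-cell-poor one. The light chain B2m was at 0.71 and was not called (adjusted p = 0.0735).

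The CXCR3 and CXCR6 axes, receptors of activated T cells and the ligands that draw these cells into tissue, rose in all 5 tested genes of 6, which were 4 ligands and Cxcr6 (median 1.13, and 3 with a median of 0.85 without the 3 libraries). Cxcl9 had 10.2, 20.9 and 35.4 FPKM in T-cell-rich tumours, against 2.28, 5.86 and 16.6 FPKM in T-cell-poor tumours (1.26 ± 0.23, adjusted p = 0.000381). Cxcl16 (1.27 ± 0.21) and its receptor Cxcr6 (1.13 ± 0.17) rose with it. Cxcl10 was at 1.09 ± 0.24 (adjusted p = 0.00278), and its call was lost without the 3 libraries (0.85, adjusted p = 0.0502). The receptor Cxcr3 itself was too low to test. Of 11 tested CC and XC chemokines and receptors, 8 rose (median 0.86, and 7 with a median of 0.90 without the 3 libraries), led by Ccl3 (1.22 ± 0.21) and Ccl4 (1.20 ± 0.23), with the receptor Ccr1 at 0.97 ± 0.17.

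The PD-1 ligands Cd274 (PD-L1) and Pdcd1lg2 (PD-L2) rose. Cd274 (chr19:29367455-29388095, plus strand) had 2.70, 10.1 and 20.2 FPKM in T-cell-rich tumours, against 1.40, 2.45 and 5.25 FPKM in T-cell-poor tumours (1.49 ± 0.23, adjusted p = 7.07e-05). Pdcd1lg2 had 1.54, 5.22 and 9.26 FPKM in T-cell-rich tumours, against 0.219, 1.09 and 3.20 FPKM in T-cell-poor tumours (1.50 ± 0.26, adjusted p = 0.000189). Of the 11 tested checkpoint and costimulatory ligands, 4 rose, also without the 3 libraries. The other 2 were the CD28 ligands Cd86 (0.75 ± 0.12) and Cd80 (0.47 ± 0.11), and the remaining 7 lay between −0.11 for Tnfsf9 and 0.38 for Lgals9 and were not called.

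Genes of macrophages rose in large part. Of 14 tested, 12 rose (median 0.80, and 11 with a median of 0.77 without the 3 libraries). The list median varied by treatment, at 0.57 in ESK981, 0.16 in anti-PD-1, 1.47 in combination and 0.83 in vehicle tumours. In anti-PD-1 tumours it was below the median over all genes (0.26). By adjusted p the list was led by Aif1, an actin-binding protein of macrophages (0.84 ± 0.15), the scavenger receptor Msr1 (1.02 ± 0.19), the Fc receptor Fcgr1 (0.87 ± 0.17) and the lipid-sensing receptor Trem2 (0.71 ± 0.14), and Cd68 (0.83 ± 0.16) and Adgre1, which encodes F4/80 (0.76 ± 0.17), rose as well. Several of the largest rises among all genes were of other genes that myeloid cells express and that are not on the list, so they were larger than the list's own. Cybb, the catalytic subunit of the phagocyte oxidase, had 4.32, 12.3 and 22.2 FPKM in T-cell-rich tumours, against 1.43, 2.59 and 8.04 FPKM in T-cell-poor tumours (1.63 ± 0.21, adjusted p = 4.31e-05), with no overlap of the centred sets. Lyz2, the lysozyme of myeloid cells, had 68.8, 302 and 685 FPKM in T-cell-rich tumours, against 44.8, 82.5 and 198 FPKM in T-cell-poor tumours (1.71 ± 0.28, adjusted p = 0.000115). The itaconate-forming enzyme Acod1 (1.82 ± 0.29), the protease Ctss (1.58 ± 0.22), the hexokinase Hk3 (1.56 ± 0.26), the lipase Pla2g7 (1.50 ± 0.25), the chitinase-like Chil1 (1.63 ± 0.27) and Ly6i (1.86 ± 0.27) were also among them.

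Lists of macrophage states gave mixed counts. Of 10 tested genes of inflammatory myeloid cells and neutrophils, 6 rose, among them the inducible nitric oxide synthase Nos2 (1.38 ± 0.34, adjusted p = 0.00775), with 1.97, 16.9 and 35.3 FPKM in T-cell-rich tumours, against 1.97, 4.29 and 10.7 FPKM in T-cell-poor tumours. Without the 3 libraries 3 of the list were called (median 0.62, against 0.70 with them), and Nos2 was at 1.23 and not called (adjusted p = 0.0579). The neutrophil genes S100a8 (0.41) and S100a9 (−0.43) were not called. Of 7 tested genes of alternatively activated macrophages, 2 rose, Arg1 (0.57 ± 0.15, adjusted p = 0.0125) and the IL-4 receptor chain Il4ra (0.74 ± 0.21, adjusted p = 0.0224). Without the 3 libraries Arg1 was at 0.55 (adjusted p = 0.0607) and Il4ra at 0.75 (adjusted p = 0.0781), so the differences were nearly as large but not called. Neither was called with median-of-ratios scaling. The median of that list was −0.09, and 0.46 without the 3 libraries, so its sign rests on them. Of 4 tested dendritic cell genes of 12, 3 rose, led by the factor Irf8 (0.75 ± 0.14, adjusted p = 0.00069), and without the 3 libraries Irf8 was the 1 gene called (list median 0.39, against 0.53 with them).

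B cell and lymph node genes were measured as markers of lymphoid tissue that a tumour near a node could carry. Of 13 B cell genes, 2 were tested, and Cd22 rose (0.56 ± 0.11, adjusted p = 0.000818) while Ebf1 was at 0.08. The defining B cell gene Ms4a1 did not exceed 0.0391 FPKM in any tumour. Summed over the 13 genes, FPKM ran from 0.695 to 2.67 in T-cell-rich tumours and from 0.491 to 1.77 in T-cell-poor tumours. Of 12 genes of lymph node stroma, follicles and lymphatics, 2 were tested. Pdpn, a glycoprotein also found on fibroblasts and macrophages, rose (1.03 ± 0.26, adjusted p = 0.0113), though not without the 3 libraries (0.96, adjusted p = 0.0894). The other, Cxcl13, was not above 0 and was not called. Ccl21a and Ccl19, chemokines of lymph node stroma, were listed at 0 in all 33 tumours, and Glycam1, of lymph node venules, at 0 in 30. Reads of genes with near-identical copies can be lost in counting, so these zeros do not show absence of lymphoid tissue. With the mean of the 2 tested B cell genes as a covariate, 203 genes (1.28%) were called higher, and the macrophage list lost all 12 calls (median 0.37), whereas 16 interferon gamma, 10 CD8 and 6 class II genes were called.

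**Figure D3:**
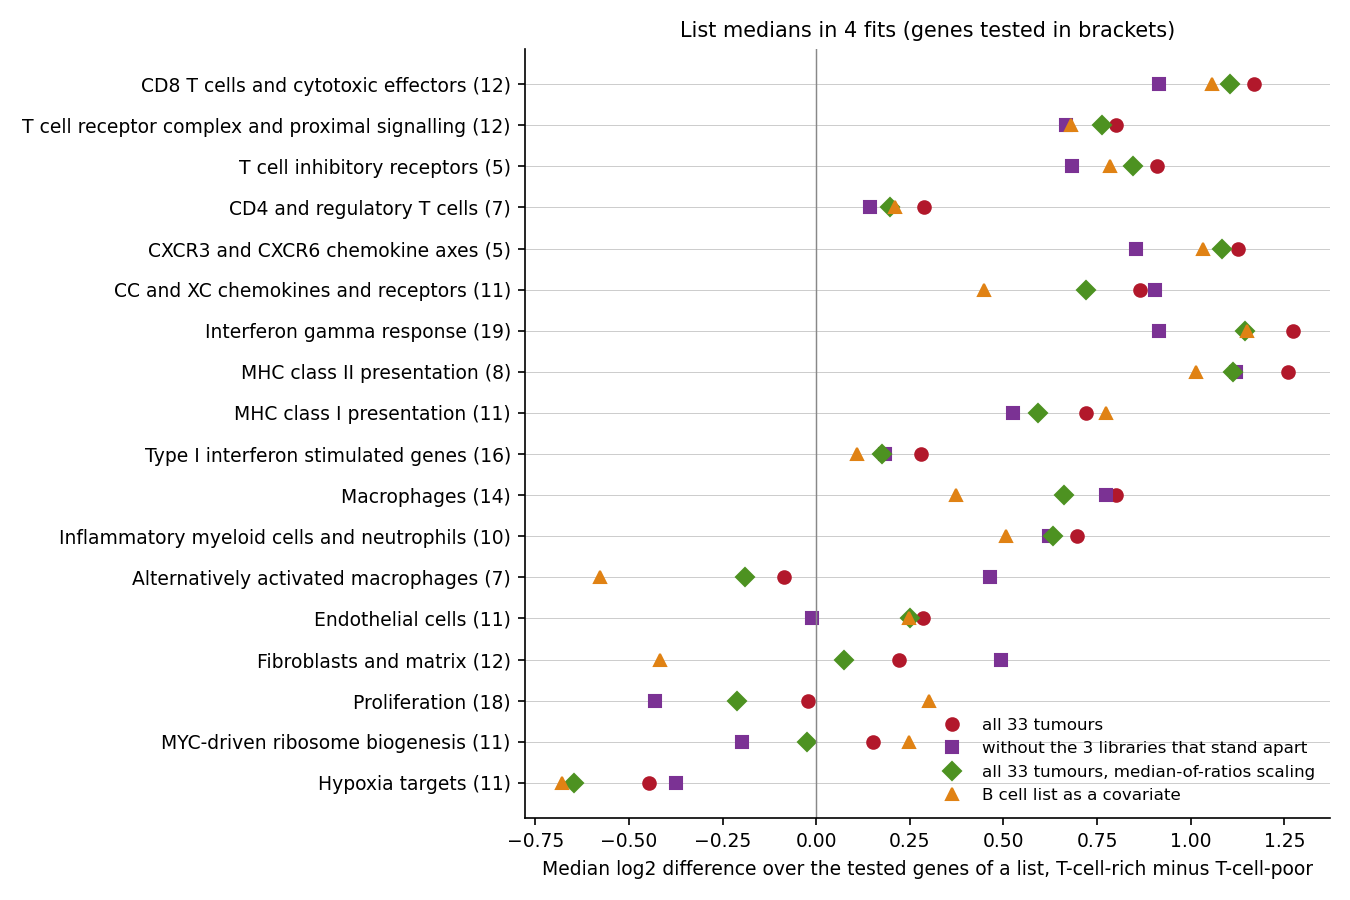
Median log2 difference (T-cell-rich minus T-cell-poor) over the tested genes of 18 lists in 4 fits, where each symbol is a fit and the number of tested genes stands in brackets. The interferon gamma, MHC class II and CD8 lists lie above 0.9 in all 4 fits, hypoxia targets lie below 0 in all 4, and the alternatively activated macrophage, endothelial, fibroblast, proliferation and ribosome biogenesis lists change sign between fits.

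Only 27 genes fell in T-cell-rich tumours, and 4 of them were among the 11 hypoxia targets (median −0.45, against 0.12 over all genes). These were Car9, a carbonic anhydrase at the cell surface, Bnip3, a mitophagy receptor, Ankrd37 and the glycolytic kinase Pgk1. Car9 (chr4:43506966-43513729, plus strand) had 1.49, 2.95 and 4.33 FPKM in T-cell-rich tumours, against 3.13, 4.20 and 37.0 FPKM in T-cell-poor tumours (−0.99 ± 0.28, adjusted p = 0.0246). Pgk1 had 108, 166 and 274 FPKM in T-cell-rich tumours, against 164, 253 and 646 FPKM in T-cell-poor tumours (−0.73 ± 0.22, adjusted p = 0.0396). The highest value of both genes was that of anti-PD-1 4R, a library that stood apart. Bnip3 (−0.78 ± 0.22, adjusted p = 0.0252) and Ankrd37 (−0.83 ± 0.23, adjusted p = 0.0236) fell with them, and of the other 7 genes only the glycolytic regulator Pfkfb3 was called, and it rose (0.55 ± 0.15, adjusted p = 0.0190).

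None of the 11 hypoxia targets was called without the 3 libraries, when the list median was −0.37, Car9 was at −0.58 (adjusted p = 0.189) and Bnip3 at −0.69 (adjusted p = 0.0574). With all tumours, 7 of the 11 genes were lower in T-cell-rich tumours in all 4 treatment groups, against 365 of all genes (2.3%). These group differences include the 3 libraries, which lay in the anti-PD-1, combination and vehicle groups. They are part of the values the test used, so they are no further support. The list mean after centring was −0.55 to 0.34 in T-cell-rich tumours and −0.36 to 1.16 in T-cell-poor tumours, or −0.27 to 0.61 there without the 3 libraries, so the sets overlapped. Among the falls outside the list, the collagen-modifying enzyme Plod2 (−0.91 ± 0.22, adjusted p = 0.00824), the mitochondrial protein Fam162a (−0.64 ± 0.18, adjusted p = 0.0286), Nrn1, which encodes neuritin (−0.77 ± 0.20, adjusted p = 0.0146), and the catenin-like Ctnnal1 (−0.71 ± 0.17, adjusted p = 0.00614) were largest. Of these, Plod2, Nrn1 and Ctnnal1 were called again without the 3 libraries. Chosen after their values were seen, the glycolytic enzymes Gapdh (−0.43, adjusted p = 0.0186) and Gpi1 (−0.43, adjusted p = 0.0449) and the collagen cross-linking enzyme Loxl2 (−0.62, adjusted p = 0.00775) also fell, and Gpi1 was not called without the 3 libraries (−0.33, adjusted p = 0.0897).

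HIF factors bind the core ACGTG in many of their target promoters, and the 4 targets that fell are shown for that core, by the 250 bases before the RefSeq start (GRCm38.p6). Capitals mark ACGTG on either strand (CACGT on the other), and where both overlap they form CACGTG, the E box that MYC and MAX also bind.
Car9 (chr4:43506776-43507025, plus strand): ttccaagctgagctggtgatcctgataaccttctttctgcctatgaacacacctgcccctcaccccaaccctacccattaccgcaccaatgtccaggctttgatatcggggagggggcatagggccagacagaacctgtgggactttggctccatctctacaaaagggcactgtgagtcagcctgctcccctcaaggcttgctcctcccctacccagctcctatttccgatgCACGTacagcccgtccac
Bnip3 (chr7:138909507-138909756, minus strand): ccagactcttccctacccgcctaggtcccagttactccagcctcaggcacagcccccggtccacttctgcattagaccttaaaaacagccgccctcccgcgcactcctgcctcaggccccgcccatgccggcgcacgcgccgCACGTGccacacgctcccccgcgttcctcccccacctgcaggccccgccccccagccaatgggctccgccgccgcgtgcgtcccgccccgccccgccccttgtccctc
Ankrd37 (chr8:45999851-46000100, minus strand): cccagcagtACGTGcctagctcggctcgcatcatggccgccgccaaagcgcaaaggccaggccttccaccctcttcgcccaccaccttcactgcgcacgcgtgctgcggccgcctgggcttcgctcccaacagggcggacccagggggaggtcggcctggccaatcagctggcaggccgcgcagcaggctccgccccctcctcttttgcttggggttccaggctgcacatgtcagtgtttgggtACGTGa
Pgk1 (chrX:106186850-106187099, plus strand): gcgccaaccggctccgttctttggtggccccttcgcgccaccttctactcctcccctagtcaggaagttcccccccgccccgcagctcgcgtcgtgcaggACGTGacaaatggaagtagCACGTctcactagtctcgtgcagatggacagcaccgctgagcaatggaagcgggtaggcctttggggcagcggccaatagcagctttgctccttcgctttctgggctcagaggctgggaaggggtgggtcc
All 4 windows held the core, as did a window of 9 of the 10 tested hypoxia targets with an entry, against 16.6% of the 32851 windows. Pfkfb3, which rose, was among the 9. It lay 18 bases before the start of Car9, 150 and 131 bases before that of Pgk1, 241 and 6 bases before that of Ankrd37, and as an E box 108 bases before that of Bnip3. The genes were on the list because they are known targets, so the match is a description of these windows.

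Tumour cell and stromal lists showed few calls. None of 18 tested proliferation genes (median −0.02), 11 ribosome biogenesis genes that MYC drives (0.15), 6 epithelial and luminal genes (0.01), 11 endothelial genes (0.28) or 12 fibroblast and matrix genes (0.22) was called by limma, with or without the 3 libraries. Mki67, a protein of cycling cells, had 14.2, 18.8 and 29.4 FPKM in T-cell-rich tumours, against 7.50, 23.2 and 35.5 FPKM in T-cell-poor tumours (0.07 ± 0.33, adjusted p = 0.925), and Myc was at −0.02 ± 0.18 (adjusted p = 0.973). The endothelial receptors Kdr (0.24 ± 0.16, adjusted p = 0.417) and Pecam1 (0.51 ± 0.20, adjusted p = 0.141) and the kinase gene Pikfyve (0.30 ± 0.11, adjusted p = 0.0972) were not called either. For proliferation, the 3 libraries that stood apart held the lowest 3 list means of the T-cell-poor set. The other 8 T-cell-poor tumours lay at 0.15 to 0.72, against −0.48 to 0.76 in T-cell-rich tumours, with a list median of −0.43 and 0 genes called without the 3 libraries.

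The score also varied between the 2 flanks of 1 mouse, where treatment and host are shared. Over the 13 mice with 2 tumours, 1118 genes (7.06%) had a positive and 64 (0.404%) a negative slope on the score within mice by limma. Of the 1016 higher genes 706 were among them, and of the 27 lower genes 19. The pairs come from the same tumours and the same score that made the sets, so this overlap is no further support. Without vehicle mouse 5 and anti-PD-1 mouse 4, whose pairs held libraries that stood apart, 387 genes were called, and leaving out 1 of them gave 706 (vehicle mouse 5) or 515 (anti-PD-1 mouse 4). In the tumour with the higher score, the CD8 list was higher in 13 of 13 mice (median difference 0.68, 0.06 to 1.55), the class II list in 13 of 13 (0.67, 0.04 to 1.68), the interferon gamma list in 12 of 13 (0.51, −0.02 to 2.05) and the macrophage list in 10 of 13 (0.48, −0.36 to 1.17). Hypoxia targets were lower there in 9 of 13 mice (median −0.21), and the largest falls, −1.41 and −1.14, were those of the pairs that held anti-PD-1 4R and vehicle 5R.

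In 4 mice, 1 flank was T-cell-rich and the other T-cell-poor. Ccl5 had 3.51 FPKM in the T-cell-rich and 1.78 FPKM in the T-cell-poor tumour of ESK981 mouse 3, 22.4 and 9.20 FPKM in that order in anti-PD-1 mouse 4, 34.8 and 5.36 FPKM in vehicle mouse 1, and 26.7 and 7.16 FPKM in vehicle mouse 4. H2-Ab1 had 39.3 FPKM in the T-cell-rich and 21.6 FPKM in the T-cell-poor tumour of ESK981 mouse 3, 116 and 50.0 FPKM in that order in anti-PD-1 mouse 4, 149 and 60.1 FPKM in vehicle mouse 1, and 118 and 52.8 FPKM in vehicle mouse 4. Car9 had 3.12 FPKM in the T-cell-rich and 3.58 FPKM in the T-cell-poor tumour of ESK981 mouse 3, 4.24 and 37.0 FPKM in that order in anti-PD-1 mouse 4, 4.06 and 5.45 FPKM in vehicle mouse 1, and 2.95 and 4.56 FPKM in vehicle mouse 4. Ccl5 and H2-Ab1 were higher and Car9 was lower in the T-cell-rich flank of all 4 mice, and for Car9 the gap was wide in anti-PD-1 mouse 4 alone, whose T-cell-poor library stood apart. Ccl5 separated the sets completely and all 3 genes were named from the same tumours, so this order is no further support. Combination mouse 3 was T-cell-rich in both flanks, and 0 mice were T-cell-poor in both.

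**Figure D4:**
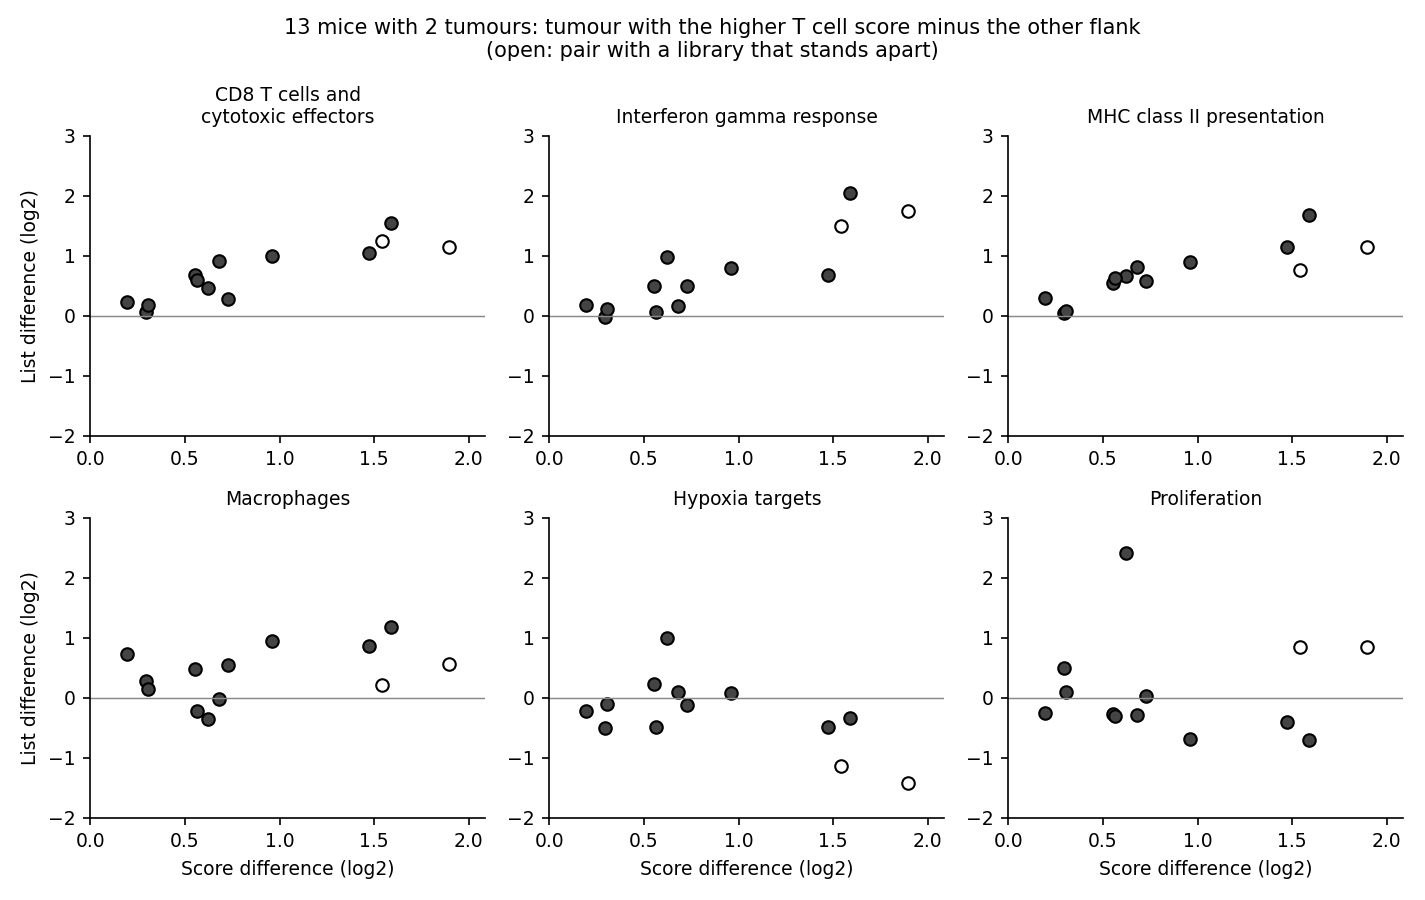
For each of 13 mice with 2 tumours, the difference of 6 list means (group-centred log2(FPKM + 0.5), vertical axis) between the tumour with the higher T cell score and the other flank, against the difference of the score (horizontal axis), with open symbols for the pairs that hold vehicle 5R or anti-PD-1 4R. The CD8 and class II lists lie above 0 in 13 of 13 mice, and hypoxia targets lie below 0 in 9.

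The medians of the CD8, interferon gamma and class II lists were above 0 in every treatment, with amounts that varied. Of the 1016 higher genes, 868 were higher in T-cell-rich tumours within all 4 treatment groups, as were 3380 of all genes (21.3%), and these group differences are part of the values the test used. The median difference of the interferon gamma list was 0.78 in ESK981 tumours, 1.15 in anti-PD-1 tumours, 1.89 in combination tumours and 1.29 in vehicle tumours, and that of the class II list was 0.81, 0.67, 2.02 and 1.54 in the same order. Over all genes the median difference was −0.02, 0.26, 0.15 and 0.15. Each rests on 2 or 3 tumours per set. Alternatively activated macrophage genes were at −1.69 in anti-PD-1 tumours and 1.14 in combination tumours, and fibroblast genes at −0.69 and 1.40 in the same order. Anti-PD-1 4R, a library that stood apart, was 1 of the 2 T-cell-poor anti-PD-1 tumours. Without the 3 libraries, the highest T-cell-poor list mean over all treatments went from 1.48 to 0.35 for alternatively activated macrophages. For fibroblasts it went from 1.02 to 0.14. Whether these lists differed between treatments was not tested. Whether slopes on the score differed with ESK981 was tested over all 33 tumours in limma. That test called 0 genes (0%), with 1999 (12.6%) at an unadjusted p under 0.05. It called 1478 genes without combination mouse 5, 18 without vehicle mouse 4 and 0 to 1478 over all 20 mice left out in turn.

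**Figure D5:**
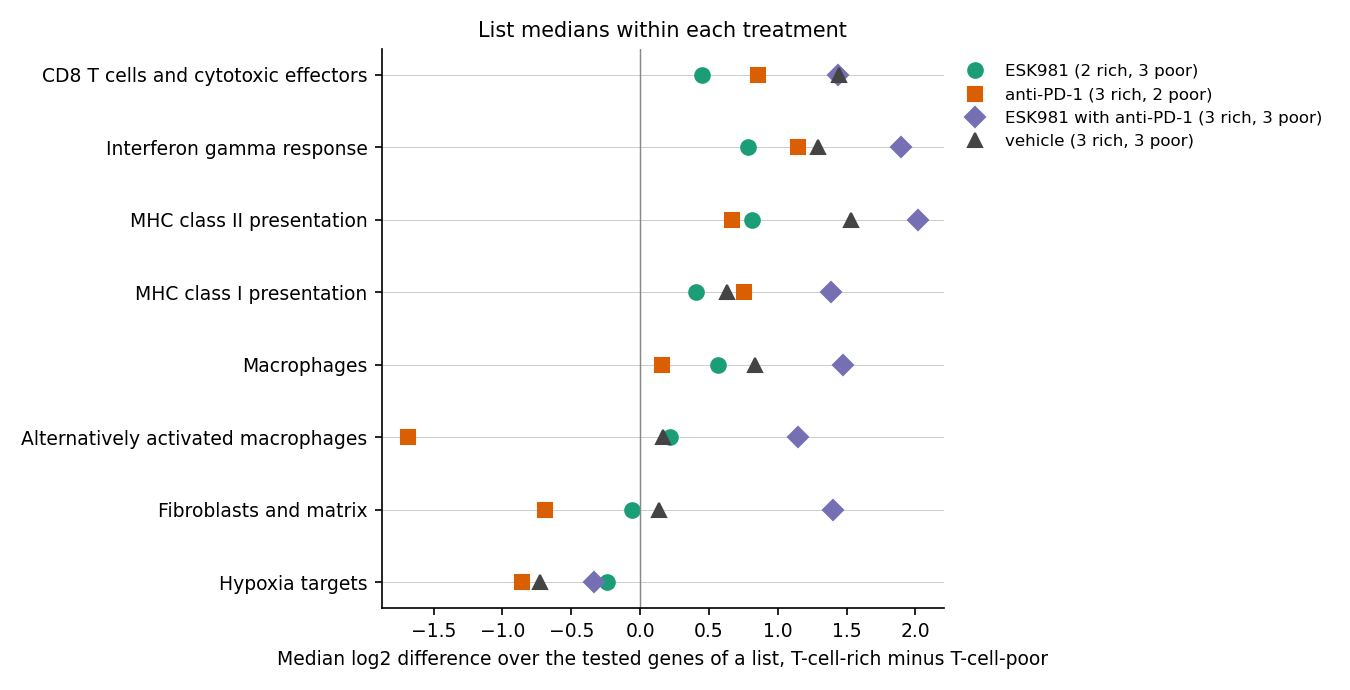
Median log2 difference (T-cell-rich minus T-cell-poor) over the tested genes of 8 lists within each treatment, with the numbers of T-cell-rich and T-cell-poor tumours in the legend. The CD8, interferon gamma and class II lists are above 0 in all 4 treatments and hypoxia targets below 0 in all 4, while alternatively activated macrophage genes run from −1.69 to 1.14. The 3 libraries that stood apart are included.

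The 11 middle tumours were in neither set. They entered the group means of the score and the fit that called the genes, so their slopes are no independent test. Of the 1016 higher genes, 896 (88.2%) had a positive slope on the score among the middle tumours, against 9139 (57.7%) of all genes tested, and 21 of the 27 lower genes had a negative slope there. By limma 0 genes were called in these 11 tumours, with 676 at an unadjusted p under 0.05. Middle-tumour slopes were −0.31 for Cxcl10, −0.065 for the Fc receptor Fcgr1, −0.12 for Oasl2 and −0.44 for Pdpn, against the direction between the sets.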

How the data were processed

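RNA of 33 tumours was sequenced after ribosomal RNA depletion. The authors deposited FPKM for 48795 genes, and the submitters' processing notes name STAR, featureCounts and mm10. For their versions, the annotation and strand the answer is "not given in the sources used here", so reads of overlapping, antisense and near-identical genes are uncertain. All value columns matched a sample (0 unused). Identifiers matched GENCODE M21 with their version for 41427 genes and in any version for 48435. Low values times exon length came out whole within 0.01 (100% in every tumour), which gave the fragments per tumour, 9.90 to 32.4 M (mega-fragments). Small fragment counts are imprecise, and replicates are tumours of labelled mice.

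Values were taken as log2(FPKM + 0.5), which understates changes of low genes. The 15843 genes with at least 0.5 FPKM in at least 5 tumours were fitted over 33 tumours with limma (version 3.58.1, R 4.3.3), with treatment group, a term of 3 sets, a mean-variance trend and the mouse as a block (within-mouse correlation 0.22, 27 residual and 4.12 prior degrees of freedom). Tests were two-sided with Benjamini-Hochberg adjustment over all genes, called at 0.05. Differences are T-cell-rich minus T-cell-poor tumours ± SE. Slopes within mice used 13 left and right pairs. Library measures were compared by permutation of 100000 resamples, with counts given only as fragments. The fit was tested on simulated data.

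Named genes were up to 15 rises and 8 falls with the largest differences among called protein-coding genes whose mean in the higher set reached 1 on the log2 scale, up to 4 members of each list with the smallest adjusted p, and fixed marker genes. Other list members named (such as Irf1, Ido1, B2m, Cd5, Fyn, H2-Eb1, Isg15, Ifit1, Ebf1, S100a8, S100a9, Lgals9 and Tnfsf9) were chosen after their values were seen. Some genes of the lists are not reported here. The sets, the 36 lists (413 entries) and the rules were chosen with earlier results of these data known. Alternatives were the pseudocount, the minimum level, median-of-ratios scaling, the mouse block, other scores and sets, covariates, flow cells, the 3 libraries that stood apart and each mouse left out.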

Additional observations from a re-analysis of the deposited data

Results flagged for a closer look

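Among the 7 anti-PD-1 tumours, anti-PD-1 4R stood apart in depth, where its log2 fragments were separated from the nearest tumour by a share of 0.673 of the group's range. The same tumour stood apart in log2 mitochondrial coding FPKM, with a share of 0.631. Both exceeded the critical value of 0.568 for 7 samples. In all, 16 sets of values were screened, and chance flags about 1 in 20 of them.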

How the results depend on the processing

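Of 1043 genes called between the sets, the count was 580 without the 3 libraries that stood apart, 648 without them and with median-of-ratios scaling, 564 in the 24 tumours of 1 flow cell and 14 in the 9 vehicle tumours of the other. It was 206 with the B cell covariate, 2007 with the 8 highest and 8 lowest tumours, 1897 with sets from Cd3d, Cd5, Cd6, Lck and Trac, 5540 with the score as a number, 3658 for mouse means, and 0 in the middle 11 tumours, where 676 genes had an unadjusted p under 0.05 by limma. Leaving out each mouse gave 707 to 1362 genes between the sets, 515 to 1629 for the slope within mice (515 without anti-PD-1 mouse 4) and 0 to 1478 for the difference of slopes with ESK981. The slope within mice called 387 genes without the 3 libraries. The counts of 648, 14 and 387 are from alternatives chosen after seeing the data. Of 93 named genes tested, 17 lost and 1 gained their call without the 3 libraries, and Kdr (−0.064) and Mki67 (−0.44), not called in either fit, turned to below 0.

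Depth was −0.10 and ribosomal-RNA-like FPKM 0.34 without the 3 libraries, and mitochondrial coding FPKM was −0.10 between the 8 highest and 8 lowest, all against the sign over both whole sets. Slopes in the middle 11 tumours turned to −0.065 for Fcgr1, −0.048 for Havcr2, −0.44 for Pdpn, −0.12 for Oasl2 and −0.31 for Cxcl10. Itgax was at −0.014 in the 9 vehicle tumours, and the lymph node list median at −0.060 with the B cell covariate. The cause was not tested. Replicate numbers follow accession order and pair nothing, and the 2 flanks of a mouse were paired through the mouse as a block and through slopes within mice. Low fragment counts limit genes of rare cells, and only RNA of whole tumours was measured.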
